A study of Mus musculus with 6 samples.

Results

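This section describes 9 genes of myelin and oligodendrocytes, Mbp, Mog, Mag, Mobp, Cnp, Mal, Ermn, Aspa and Apod, in lateral ventricle choroid plexus of young and aged mice. They were taken by name, and each probe set whose only gene symbol is one of the 9 was used, 25 probe sets in all on an array that names 18193 genes. All 9 genes were bright enough to test, among 12681 genes tested. The samples were whole plexus, both sides pooled, from 6 male mice of the outbred CD1 stock, 3 aged 18 months and 3 aged 2 months. No treatment or altered allele is given for either age, and 1 array stands for 1 mouse. Total RNA was amplified and labelled with biotin, and values are log2 of the normalized intensities that the authors deposited, so that 1 unit is a doubling. The question asked of these genes was how much their signal varied from mouse to mouse, whether it moved with neuronal signal, and which of them differed with age.

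Oligodendrocytes wrap axons of the brain in myelin, a stack of lipid-rich membrane held together by a few abundant proteins. The choroid plexus is an epithelium over a vascular stroma that makes cerebrospinal fluid, and it has no myelinated axons of its own in the textbook description. The transcription factors Sox10 and Myrf drive the myelin programme, Myrf at the step when the cells mature.

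The upstream sequences of 4 of the genes are shown because these genes fell on different sides of the results that follow. Mog and Ermn were measured higher at 18 months, whereas Mobp and Cnp followed Mbp from mouse to mouse with little difference between ages. Each is the 250 bases before a transcription start listed for the gene in RefSeq, build GRCm38.p6, on the gene's own strand, and belongs to the reference strain, not to CD1. Of the 9 genes, 8 matched an entry there, with 10 start windows. Capitals mark the letters ACAAAG or ACAATG, cores read by Sox factors (the first also by Tcf/Lef factors), and CTGGCAC or CTGGTAC, cores read by Myrf, on either strand. The Mog window is chr17:37023399-37023648 on the minus strand, the Ermn window is chr2:58052865-58053114 on the minus strand, the Mobp window is chr9:120149492-120149741 on the plus strand and the Cnp window is chr11:100574689-100574938 on the plus strand.
Mog: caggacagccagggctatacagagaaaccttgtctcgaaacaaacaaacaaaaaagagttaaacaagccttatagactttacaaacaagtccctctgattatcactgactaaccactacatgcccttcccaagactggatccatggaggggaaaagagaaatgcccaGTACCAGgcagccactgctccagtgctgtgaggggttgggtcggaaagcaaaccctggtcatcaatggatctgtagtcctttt
Ermn: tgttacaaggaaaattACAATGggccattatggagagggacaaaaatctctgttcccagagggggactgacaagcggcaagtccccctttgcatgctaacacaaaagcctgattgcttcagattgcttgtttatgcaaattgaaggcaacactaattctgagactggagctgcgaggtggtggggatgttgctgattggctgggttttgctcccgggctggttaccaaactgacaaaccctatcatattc
Mobp: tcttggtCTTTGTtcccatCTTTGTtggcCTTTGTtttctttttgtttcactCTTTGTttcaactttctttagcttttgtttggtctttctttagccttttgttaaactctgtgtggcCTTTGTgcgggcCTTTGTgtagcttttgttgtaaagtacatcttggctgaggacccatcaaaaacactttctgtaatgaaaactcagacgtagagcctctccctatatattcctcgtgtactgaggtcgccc
Cnp: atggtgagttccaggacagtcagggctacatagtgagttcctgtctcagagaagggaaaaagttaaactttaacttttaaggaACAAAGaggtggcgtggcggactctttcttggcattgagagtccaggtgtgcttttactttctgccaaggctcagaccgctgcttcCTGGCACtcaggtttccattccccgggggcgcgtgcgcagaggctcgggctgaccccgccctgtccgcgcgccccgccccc
A Myrf core stood in the Mog and Cnp windows, 83 and 81 bases before the listed start at its first letter. The gene as annotated begins upstream of the start listed for Cnp, so the end of that window lies inside the gene. The Mobp window held 6 Sox cores, and those of Ermn and Cnp held 1 each. Over all the genes' windows, 6 of 10 held a Sox core against 25.2% of 32851 windows of the same length, and 4 of 10 held a Myrf core against 5.93%. Of these, 2 are overlapping windows of Mag that share 1 match of each kind. These are matches of letters only.

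The tissue label was checked first. Of 16 epithelial markers of the plexus, 14 were named on the array for that gene alone, and their median log2 level was 12.4. Their summed intensity varied by no more than 1.08-fold over the 6 mice. The ages were separate within that span, from 89301 to 89556 at 18 months and from 94018 to 96485 at 2 months. Whether the high level of these genes narrowed their span was not tested. Ttr, the thyroxine carrier that the epithelium secretes, measured 14.36, 14.30 and 14.25 at 18 months and 14.48, 14.48 and 14.46 at 2 months. The median log2 value of an array lay between 5.56 and 5.65. The highest mean of 27 control probe sets for bacterial transcripts, 4.51, serves as a gauge of background.

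The myelin genes varied more between mice than the epithelial ones. Their summed intensity ran from 3280 in 2-month replicate 2 to 10199 in 18-month replicate 3, a 3.11-fold span. The median span of a gene over the 6 mice was 1.85 log2 units for the 9 genes, against 0.88 for all genes tested. Within the 18-month mice, replicate 1 had the lowest value for 9 of the 9 genes and replicate 3 the highest for 8. Within the 2-month mice, replicate 3 was highest for 9 of 9 and replicate 2 lowest for 7. Both ages held mice with high and with low myelin signal. In whole tissue, fewer cells of a type and less RNA per cell cannot be told apart.

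The genes for compact myelin come first. Mbp encodes myelin basic protein, which glues the inner faces of the membrane together. Its log2 intensity was 10.21, 11.14 and 11.79 in the 18-month mice and 11.23, 10.01 and 11.85 in the 2-month mice. The ages overlapped throughout, with a difference of 0.02 (SE 0.57) and a 95% confidence interval from 0.392-fold to 2.61-fold. Mobp encodes another small basic protein of compact myelin of the central nervous system. It measured 8.28, 9.61 and 9.81 at 18 months and 9.44, 7.45 and 10.11 at 2 months. Here 2-month replicate 2 lay lowest and 2-month replicate 3 highest, and the difference was 0.23 (SE 0.74). For neither gene does the interval exclude a change of more than 2-fold either way, so that a moderate change was not detectable with 3 mice an age.

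Genes for the less compact parts of the sheath gave the same picture. Mag, an adhesion protein on the membrane facing the axon, read 6.17, 6.73 and 7.95 in the aged mice and 7.07, 6.32 and 7.58 in the young (difference -0.04, SE 0.52). Cnp, the cyclic nucleotide phosphodiesterase of oligodendrocyte cytoplasm, read 9.37, 10.23 and 10.43 in the aged mice and 10.37, 8.73 and 10.72 in the young (0.07, SE 0.56). Neither sign was stable when single mice were left out. The share of variance lying between ages was below 2% for Mbp, Mobp, Mag and Cnp alike, with 0.0157% for Mbp at the low end and 1.48% for Mobp at the high end.

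Mog stood apart from these 4. It encodes myelin oligodendrocyte glycoprotein, an immunoglobulin-family protein on the outer surface of the sheath that appears late as oligodendrocytes mature. Its values were 6.96, 7.42 and 7.60 at 18 months and 5.18, 5.33 and 6.21 at 2 months. All 3 aged mice lay above all 3 young mice, and even the lowest aged mouse, which had the least myelin signal of its age, exceeded the highest young mouse. The log2 difference was 1.75 (SE 0.33), or 3.37-fold with a 95% confidence interval from 1.96 to 5.78. The fold rests on dim young values. Of these, 5.18 and 5.33 lay under the lowest array median, 5.56, though above the highest bacterial control, 4.51. It did not pass the threshold over all genes (limma, unadjusted p = 0.00124, adjusted p = 0.328). Of the variance of Mog, 84.6% lay between ages, against a median of 14.9% over all genes tested. Only 1 probe set was named for Mog, so that no second probe set bears on it.

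Ermn, which encodes the cytoskeletal protein ermin of late oligodendrocytes, had the widest difference of the 9. It measured 6.70, 7.55 and 8.08 at 18 months and 5.03, 3.46 and 7.05 at 2 months. The ages overlapped, since 2-month replicate 3 exceeded 18-month replicate 1. The difference was 2.26 (SE 0.88; limma, unadjusted p = 0.0384, adjusted p = 0.701). The lowest young mouse lay under the highest bacterial control, and with that control as a floor, a setting added after the data were seen, the difference was 1.92. Without 2-month replicate 2 it was 1.41, and without 2-month replicate 3 it was 3.20.

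Aspa and Apod serve lipid supply and transport. Aspa encodes aspartoacylase, which frees acetate from N-acetylaspartate for myelin lipid. Its levels were 6.08, 6.61 and 6.83 at 18 months and 5.32, 5.05 and 6.79 at 2 months, with 2-month replicate 3 among the aged mice (difference 0.79, SE 0.48; 0.45 without 2-month replicate 2 and 1.32 without 2-month replicate 3). Apod encodes apolipoprotein D, a lipid carrier that oligodendrocytes share with astrocytes and fibroblasts. It read 10.79, 11.00 and 11.48 in the aged mice and 10.58, 10.16 and 10.72 in the young. The ranges of Apod were separate by a narrow gap, and the difference was 0.60 (SE 0.25; limma, unadjusted p = 0.0517, adjusted p = 0.709). Mal, a membrane protein of lipid rafts found in myelin and also in sorting at the apical face of epithelia, read 8.15, 9.61 and 9.47 in the aged mice and 8.03, 8.44 and 8.77 in the young (0.67, SE 0.42). Without 18-month replicate 2 the Mal difference was 0.40 and without 18-month replicate 1 it was 1.13.

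**Figure D1:**
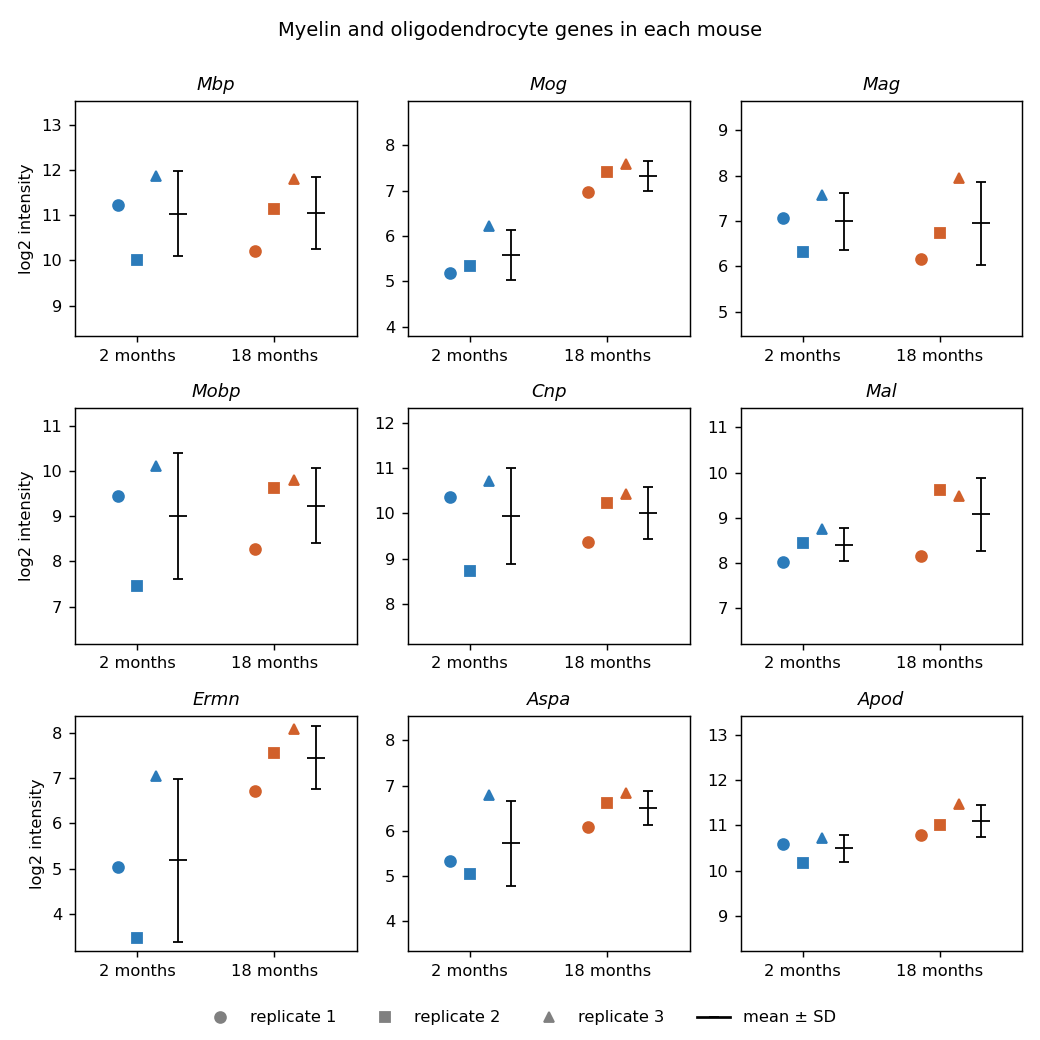
Log2 intensity of each of the 9 genes (y axis, the same span of units in every panel) in 3 mice at 2 months and 3 at 18 months (x axis); symbols mark the replicate number and black bars the mean ± SD. Mog is the gene whose aged mice, from 6.96 to 7.60, all lie well above the young mice, from 5.18 to 6.21, while Mbp, Mag, Mobp and Cnp overlap fully.

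Across the 9 genes, limma called 0 higher and 0 lower at an adjusted p under 0.05, as it did for 0% of all genes in either direction. At an unadjusted p under 0.05, 2 of the 9 were higher (Mog and Ermn) and 0 lower, where 4.02% of all genes were higher and 3.03% lower. The ordinary test without moderation gave 0 at the adjusted threshold and, at the unadjusted one, 1 higher and 0 lower, where 3.88% of all genes were higher and 2.74% lower. The ranges of the ages were separate in the higher direction for 2 of 9 (Mog and Apod), where this held for 7.06% of all genes, and in the lower direction for 0 of 9, where it held for 6.25%. The median difference of the 9 was 0.60, against 0.00 over all genes tested, and 8 of 9 lay above 0, where 6393 of 12681 genes did. Averaging each gene's probe sets gave a median of 0.23, and so did the 60th percentile filter, which drops Ermn and Aspa. The count at an unadjusted p under 0.05 fell to 1 without 18-month replicate 2 or 3 or 2-month replicate 1 or 2, where 445, 481, 414 and 495 of 12681 genes were higher. It was 4 without 18-month replicate 1 or 2-month replicate 3, where 487 and 457 of 12681 genes were higher.

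Several genes had more than 1 probe set, and these did not always follow one another. Of the 8 for Mbp, 6 tracked the brightest one or were it (r of at least 0.888 over the 6 mice), while the remaining pair did not (r of 0.106 and -0.004). That pair also gave the outermost differences of the gene, -0.54 and 0.71, against -0.12 to 0.25 for the others. The 5 for Mobp gave -0.27 to 0.79 and the 3 for Cnp -0.45 to 0.07. For Mal, the second probe set correlated with Mbp at 0.98 and differed by 0.30, whereas the brighter one, used above, correlated at 0.51. Both probe sets for Ermn were higher at 18 months, by 2.26 and 1.18. The second one for Apod lay under the filter and under the highest bacterial control. In all, 16 of the 25 probe sets had differences above 0. The ranges of the ages were separate in the higher direction for 2 of the 25, those of Mog and Apod, where this held for 5.36% of all probe sets.

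**Figure D2:**
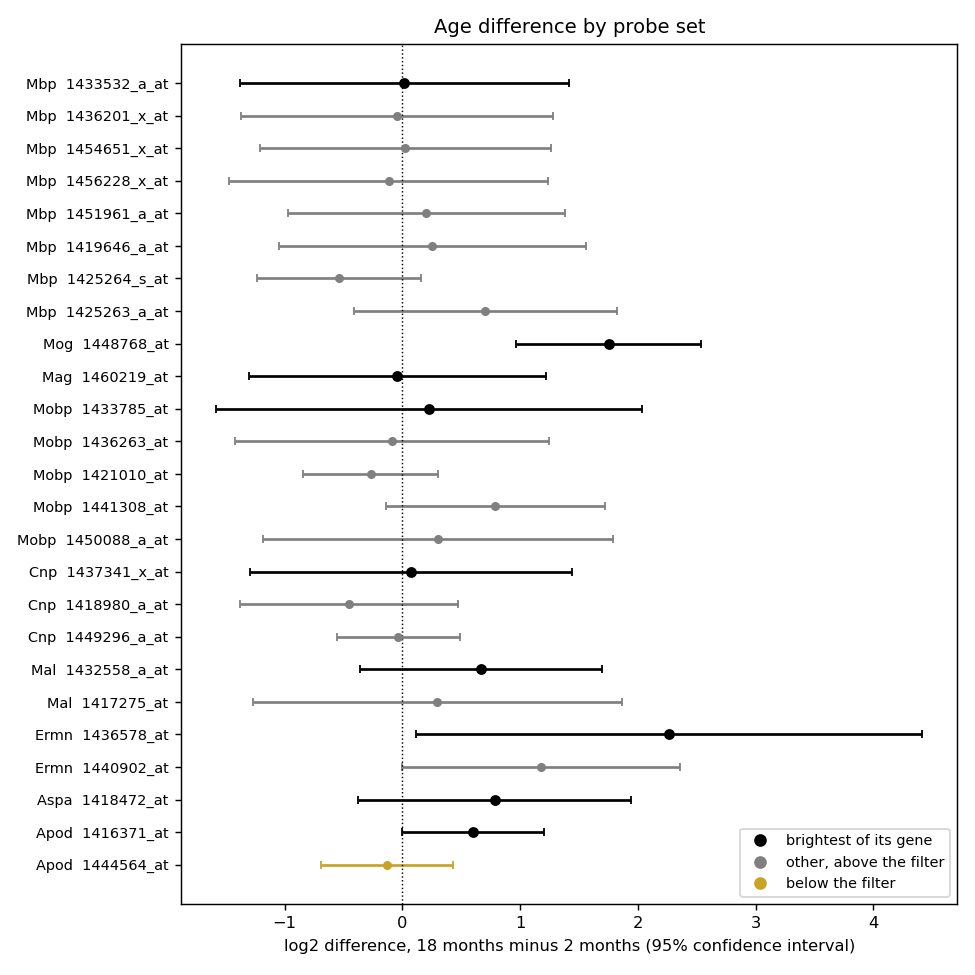
Log2 difference between ages (x axis, 18 months minus 2 months, points with 95% confidence intervals) for each of the 25 probe sets (y axis); black marks the brightest probe set of a gene. The interval for Mog lies away from 0, both probe sets of Ermn lie at 1.18 and 2.26, and the probe sets of Mbp, Mobp and Cnp scatter on both sides of 0.

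Neuronal signal was set beside the myelin genes as a second sign of brain tissue. Of 20 neuronal markers, 18 were named and tested, and their summed intensity spanned 3.09-fold, from 4519 in 2-month replicate 2 to 13967 in 18-month replicate 3. Those are also the mice with the lowest and the highest summed myelin signal. On the mean centred log2 level, the neuronal list was instead lowest in 18-month replicate 1 (-0.78), with 2-month replicate 2 next (-0.73). Of the 18 neuronal genes, 0 passed an unadjusted p under 0.05 in either direction, with a median difference of 0.21. Of 14 astrocyte markers, 12 were tested. Their summed intensity spanned 2.55-fold with its extremes in 2-month replicate 2 and 18-month replicate 3. The part of brain tissue carried with the plexus in these values was not tested.

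**Figure D3:**
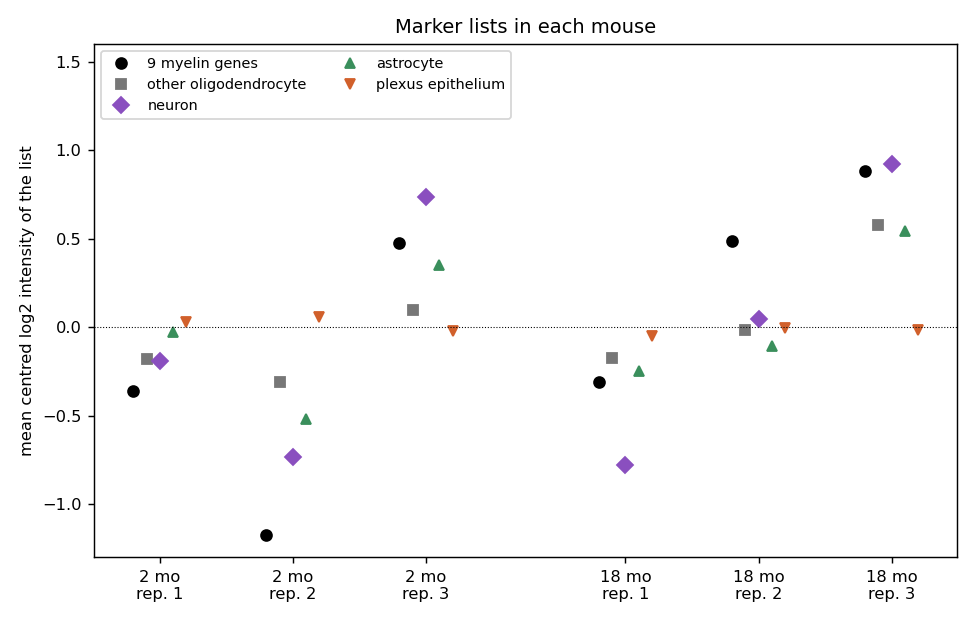
Mean centred log2 intensity of 5 gene lists (y axis, each gene's mean over the 6 mice set to 0) in each mouse (x axis). The myelin genes range from -1.17 in 2-month replicate 2 to 0.88 in 18-month replicate 3. The neuronal list ranges from -0.78 in 18-month replicate 1 to 0.92 in 18-month replicate 3, while the epithelial list stays between -0.05 and 0.06.

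Snap25, which encodes a protein of the synaptic release machinery, gave one value per mouse for this comparison: 10.43, 11.63 and 12.29 at 18 months and 11.10, 10.23 and 12.30 at 2 months. Mbp correlated with Snap25 over the 6 mice at Pearson r = 0.969 (exact permutation p = 0.00833, adjusted over 9 relations 0.025; Spearman rho 0.943, exact permutation p = 0.0167, adjusted 0.050). Mobp gave r = 0.929 (exact permutation p = 0.00139, adjusted 0.0125) with the same order of mice (rho 1.0, p = 0.00278, adjusted 0.025). For Mag r was 0.911 (exact permutation p = 0.0194, adjusted 0.0438; rho 0.829, p = 0.0583, adjusted 0.105), and for Cnp it was 0.896 (exact permutation p = 0.00694, adjusted 0.025; rho 0.943, p = 0.0167, adjusted 0.050). These are the 4 genes whose differences between ages were smallest. Of the variance of Snap25, 2.14% lay between ages. A gene with most of its variance between ages, such as Mog with 84.6%, cannot reach a high r with Snap25 over the 6 mice. The match of a high r with a small age difference was thus partly fixed in advance. An r as high as that of Mbp was reached by 0.150% of all genes, and one as high as that of Cnp by 1.14%.

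The other 5, each read from its brightest probe set, did not pass on Pearson's r after adjustment. Aspa had r = 0.830 (exact permutation p = 0.050, adjusted 0.090; rho 0.886, p = 0.0333, adjusted 0.075) and Ermn 0.751 (exact permutation p = 0.0958, adjusted 0.143; rho 0.771, p = 0.103, adjusted 0.154). Apod had 0.712 (exact permutation p = 0.111, adjusted 0.143; rho 0.543, p = 0.297, adjusted 0.334), Mal 0.670 (exact permutation p = 0.181, adjusted 0.203; rho 0.543, p = 0.297, adjusted 0.334) and Mog 0.476 (exact permutation p = 0.319, adjusted 0.319; rho 0.429, p = 0.419, adjusted 0.419). Leaving out the 2 mice farthest from the median of Snap25, 2-month replicates 2 and 3, left r at 0.934 for Mbp, 0.902 for Mobp, 0.885 for Mag and 0.816 for Cnp. It gave 0.652 for Aspa, 0.614 for Ermn, 0.825 for Apod, 0.826 for Mal and 0.451 for Mog. Both genes of each relation were read from the same arrays and the same normalization. Which genes had a high r also depended on the probe set. The second Mal probe set correlated with Snap25 at 0.969. The dimmer ones of Cnp gave 0.513 and 0.668, and those of Mobp 0.519 to 0.827. The Mbp pair that did not follow the brightest gave 0.171 and 0.193, and the other dimmer Mbp ones 0.818 to 0.977. The second Ermn probe set gave 0.415.

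When each mouse was instead expressed as a deviation from the mean of its age, Mog too moved with Snap25. Its r rose from 0.476 to 0.880, that of Ermn from 0.751 to 0.933 and that of Apod from 0.712 to 0.920. Mbp was at 0.977, Mobp at 0.928, Mag at 0.926, Aspa at 0.912, Cnp at 0.8998 and Mal at 0.713. An r of at least 0.9 was reached by 6 of the 9 genes and by 2.29% of all genes. These values describe 6 mice after 2 means were removed and were chosen after the data were seen.

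**Figure D4:**
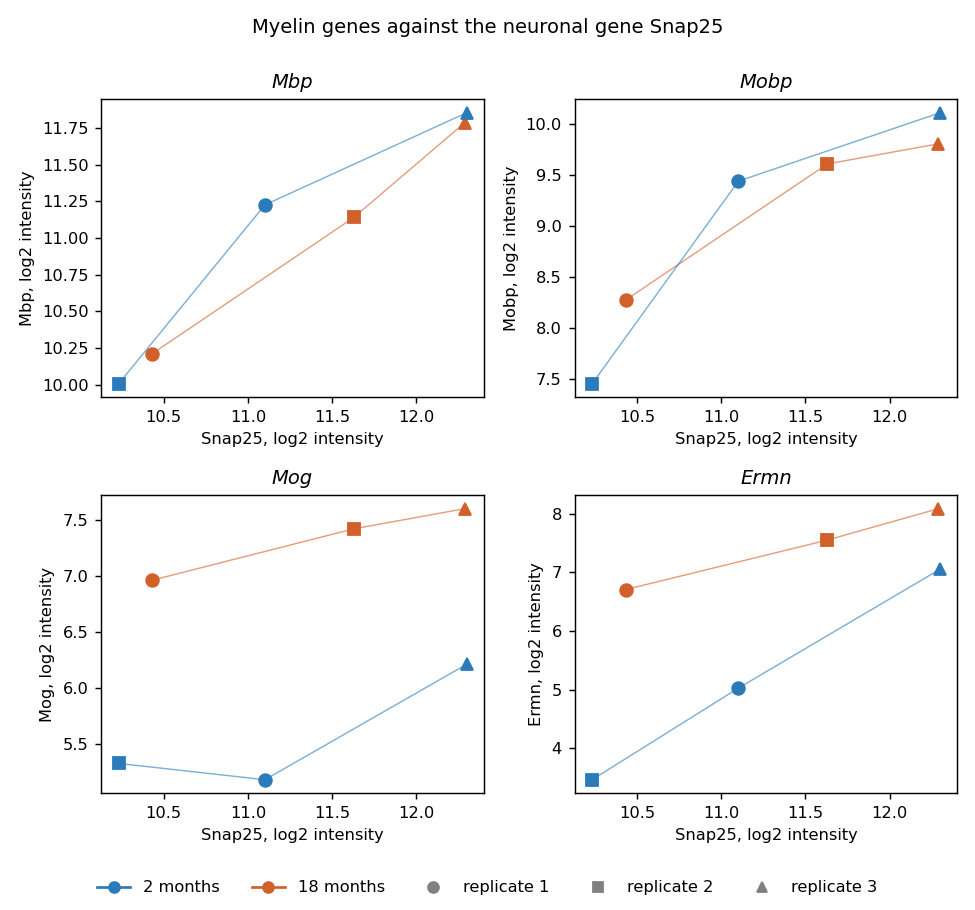
Log2 intensity of Mbp, Mobp, Mog and Ermn (y axes, own scale in each panel) against that of Snap25 (x axes) in 6 mice; thin lines join the mice of an age in order of Snap25. The mice of both ages lie close together for Mbp (r = 0.969) and Mobp (r = 0.929), while for Mog (r = 0.476) and Ermn (r = 0.751) the line of the aged mice lies above that of the young.

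The comparison of ages was therefore repeated with the mean neuronal level of each array as a covariate. The SE of the Mbp difference went from 0.57 to 0.23 and that of Mag from 0.52 to 0.20, while the median ratio of the SEs over all genes was 1.01. With the covariate, Mog differed by 1.69 (SE 0.22; limma, unadjusted p = 0.000348, adjusted p = 0.209), Ermn by 2.07 (SE 0.47; unadjusted p = 0.00538, adjusted p = 0.488) and Apod by 0.55 (SE 0.17; unadjusted p = 0.0193, adjusted p = 0.598). Aspa gave 0.69 (SE 0.29), Mal 0.60 (SE 0.34), Mobp 0.07 (SE 0.42), Cnp -0.04 (SE 0.36), Mbp -0.11 (SE 0.23) and Mag -0.16 (SE 0.20). Without adjustment, 3 of 9 had a p under 0.05 in the higher direction and 0 in the lower, where this held for 4.41% and 3.34% of all genes, and 0 passed the adjusted threshold.

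**Figure D5:**
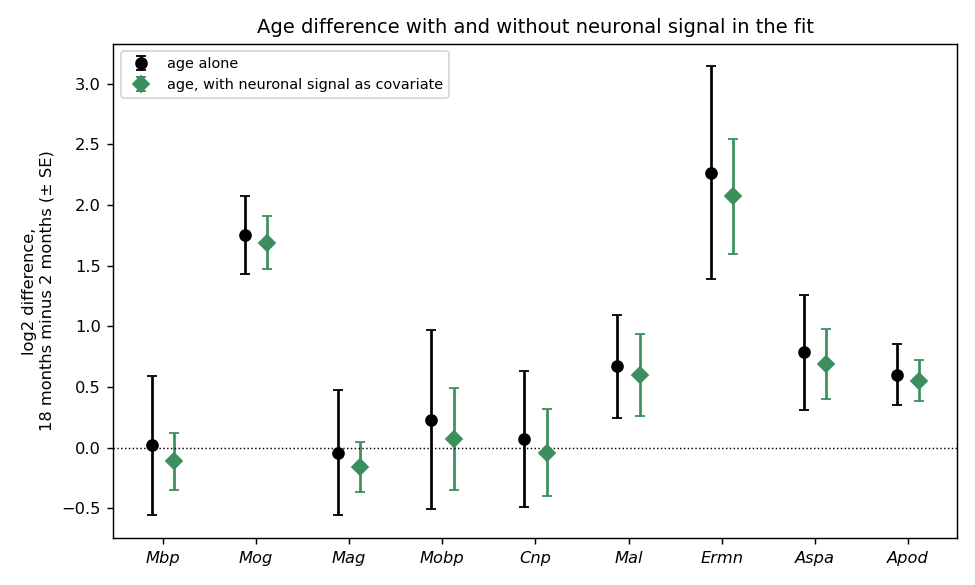
Log2 difference between ages (y axis, ± SE) for each gene (x axis), from the fit on age alone (black circles) and with the mean level of 18 neuronal genes per array as a covariate (green diamonds). The differences of Mog (1.75 and 1.69) and Ermn (2.26 and 2.07) are much the same in both fits, and the error bars of Mbp and Mag are shorter with the covariate.

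Mog was also set against Mbp within each array. Centred on 0 over the 6 mice, the log2 ratio of Mog to Mbp was 1.34, 0.87 and 0.40 at 18 months and -1.46, -0.09 and -1.06 at 2 months. The ages were separate, and the difference between the age differences was 1.73 (exact permutation p = 0.1, two-sided, the smallest that 3 mice against 3 allow). Among the 8 genes compared with Mbp in this way, Ermn was the other with separate ages (2.25, exact permutation p = 0.1). The remaining 6 ranged from -0.06 for Mag to 0.77 for Aspa, with exact p from 0.2 to 0.9, and after adjustment over the 8 comparisons the lowest p was 0.4. With the 2 Mbp probe sets that do not follow the brightest one, the Mog value was 1.05 (exact permutation p = 0.3) and 2.29 (exact permutation p = 0.1).

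Of 40 further genes of the oligodendrocyte lineage, 36 were named on the array for that gene alone and 29 were bright enough to test. This list was written with earlier results of these data known. By limma, 0 passed the adjusted threshold. Without adjustment, 3 had a p under 0.05 with higher levels at 18 months and 0 with lower, where 4.02% and 3.03% of all genes did. The median difference was 0.25, or 0.00 without 18-month replicate 3 and 0.07 without 2-month replicate 2. Myrf, the transcription factor of the maturation step, had the smallest p. It measured 7.08, 7.05 and 7.64 at 18 months and 5.68, 4.86 and 5.36 at 2 months. The young values were dim, with 4.86 under the filter value of 4.92 that the mean of a gene had to reach. The ages of Myrf were far apart, by 1.96 (SE 0.28), or 3.89-fold (limma, unadjusted p = 0.000276, adjusted p = 0.185), and with the neuronal covariate by 1.92. Tubb4a, a tubulin of oligodendrocytes and neurons, had 10.07, 10.43 and 10.60 against 9.33, 8.98 and 9.67 (1.04, SE 0.24; adjusted p = 0.507). Evi2a, a membrane protein gene, gave 0.72 (SE 0.27) and Plekhb1, a lipid-binding domain gene, 0.62 (SE 0.27), and both moved by over 1.5 times when 2-month replicate 2 or 18-month replicate 1, respectively, was left out (0.45 and 0.40).

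Of the 29 genes, 23 had differences above 0 and 6 below, where 6393 of all 12681 genes tested lay above 0. Sox10, which acts through all stages of the lineage, read 6.09, 6.29 and 7.14 in the aged mice and 6.09, 6.38 and 6.31 in the young (0.25, SE 0.30). The Sox10 value was -0.072 without 18-month replicate 3, 0.46 without 18-month replicate 1 and 0.16 without 2-month replicate 1. Olig2, a lineage factor, had a mean of 3.36 and lay under the highest bacterial control. Tspan2, a tetraspanin of myelinating cells that was picked out after its values were seen, had the lowest difference of the list, -1.68 (SE 0.88), with 2-month replicate 2 at 9.93 although that mouse had the lowest levels of most myelin genes. Without that mouse the Tspan2 difference was -0.74.

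Precursor cells of oligodendrocytes have their own markers. Of 13, 8 were tested, with 1 higher and 1 lower at an unadjusted p under 0.05 and a median of -0.18. Over all genes tested, 4.02% were higher and 3.03% lower. The higher one, Pdgfra (1.95, SE 0.22; limma, adjusted p = 0.118), a growth factor receptor, is shared with fibroblasts of the stroma, and its mean over all probe sets gave 1.09. The lower one was Gpr17, a receptor of cells about to differentiate (-0.60, SE 0.24; limma, adjusted p = 0.706). Tnr, a matrix glycoprotein, gave -0.62 (SE 0.32; -0.33 without 18-month replicate 1) and Vcan, a matrix proteoglycan, 0.74 (SE 0.44; 1.18 without 18-month replicate 1 and 0.45 without 18-month replicate 3). Of 10 Schwann cell markers, which would mark peripheral myelin, 3 were tested and 0 passed either threshold, the largest difference being -0.11 for Pmp22 (-0.63 without 18-month replicate 3). Genes of sterol and lipid synthesis, which feed myelin but also every other cell, gave 4 of 17 higher and 0 lower at an unadjusted p under 0.05 (Insig1, 0.96, SE 0.24; Nsdhl, 0.94, SE 0.23; Fdft1, 0.53, SE 0.19; Cyp51, 0.65, SE 0.25), with a median of 0.19. With the mean of all probe sets, Fdft1 gave 0.21 and Cyp51 0.39.

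The genes whose pattern over the 6 mice was most like the mean of the 9, leaving out 622 genes named only by a clone or model number, included several neuronal ones. Syn1, a synaptic vesicle protein gene, led with r = 0.996 and values of 6.59, 7.72 and 8.65 at 18 months and 6.42, 5.11 and 8.05 at 2 months. Next came Mfsd11 (0.994), Gpr4 (0.987), Tenm2 (0.986), Nova1 (0.984), Mir22hg (0.981), Parn (0.980), Ctnnd2 (0.978), Zmat1 (0.977) and Rtn1 (0.977). An r does not weigh the size of a change. Gpr4 ran only from 5.47 to 5.57 over the 6 mice, Mfsd11 from 6.30 to 6.66 and Parn from 9.13 to 9.58. Tenm2 is an adhesion protein of synapses, Nova1 a neuronal splicing factor and Ctnnd2 a neuronal catenin. In all 141 genes, or 1.11% of those tested, reached an r of at least 0.9 with the mean of the 9. Unlike the ranking, this count left out neither the 9 genes nor those named only by a clone or model number. The pattern of Mog was most like other genes: Fkbp5, a co-chaperone of the glucocorticoid receptor (r = 0.986), Zfp119b (0.985), Sphk2, a sphingosine kinase (0.980), Ctu1, a tRNA-modifying enzyme (0.976), and Gdpd3, a phosphodiesterase gene (0.974). These likenesses rest on 6 mice and are a description.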

How the data were processed

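Arrays of 6 mice were used, 3 at 18 months and 3 at 2 months, grouped by their titles. The deposited values are linear intensities per probe set, made with RMA per the submitters' processing notes; its version and any build are not given in the sources used here. RMA fits and scales all arrays jointly, which can shrink differences in overall level.

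From these, log2 was taken. Of 45037 probe sets that are not controls, 34945 carry 1 gene symbol in the platform annotation, 932 several and 9160 none. The brightest probe set stood for a gene, and genes under the 40th percentile (log2 4.92) were left out. Ages were compared with limma 3.58.1 in R 4.3.3 (lmFit, eBayes) with Benjamini-Hochberg adjustment over 12681 genes, at 0.05. Correlations and ratios within arrays used two-sided exact permutation tests (scipy 1.17.1). On simulated data over the 12681 genes, the adjusted test called 17.9% of genes changed by 1 log2 unit, 84.4% at 2 and 96.4% at 3. The changed genes were drawn at random from all those tested, a fixed number in each run. Noise was drawn for each gene on its own, whereas measured genes can move together from mouse to mouse. The rates therefore hold for that setting only. The 9 myelin genes had wider spans over the mice (median 1.85 against 0.88 log2 units), and the rates for them were not tested. The number of arrays limits the precision.

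The genes and the 13 lists were chosen with earlier results of these data known. Genes named are the 9, up to 4 of each list with the smallest p, a few fixed genes (among them Snap25, Gfap, Sox10, Olig2, Ttr and Pdgfra) and those most alike in pattern; others are said to be chosen after their values were seen. Upstream sequences are from RefSeq. Alternatives changed the filter, probe set rule, normalization, weights, covariate, test, block and mice included.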

Additional observations from a re-analysis of the deposited data

How the results depend on the processing

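No myelin gene passed the adjusted threshold under any of the alternatives run, the lowest adjusted p being 0.209 (limma, Mog with the neuronal covariate). Of the differences of single genes under these alternatives, 126 kept their direction and side of the threshold and 16 reversed (Cnp in 6, Mbp in 5, Mag in 3 and Mobp in 2). The filters, block and ordinary test cannot change a direction, so part of the 126 was fixed in advance. Mog kept its direction in 16 of 16 alternatives, from 1.56 to 2.07, with adjusted p from 0.209 to 0.685 (limma or the ordinary test). Most of these could not have reversed it. The filters, block, ordinary test and mean of its only probe set left it at 1.75. With separate ages, leaving out mice or weighting arrays cannot change its sign. Reversed differences were Cnp -0.14 with the mean of all probe sets, Mbp -0.10 and Cnp -0.072 with array weights, and Mbp -0.11 and Cnp -0.042 with the neuronal covariate. Leaving out each mouse in turn gave -0.49 to 0.44 for Mbp, -0.54 to 0.35 for Mag, -0.55 to 0.78 for Mobp and -0.54 to 0.46 for Cnp. It gave 1 to 4 myelin genes higher at an unadjusted p under 0.05, and 2 to 5 higher and 0 to 1 lower among the other oligodendrocyte genes. Over all 12681 genes these fits gave 414 to 495 higher and 285 to 403 lower. The ordinary 2-sample test gave 1 myelin gene higher, where 3.88% of all genes were. Among the other oligodendrocyte genes, the 60th percentile filter, which also dropped Ermn and Aspa, gave 1 higher, where 408 of 9428 genes were. Leaving out both mice numbered 3 gave 1 lower, where 329 of 12681 genes were. Over all genes, the adjusted count was 3 higher and 1 lower with that filter, 5 higher with the mean of probe sets, 4 higher and 1 lower with each array centred on its median, 3 higher and 1 lower with array weights, and 1 higher with the covariate. Mog against Mbp was 1.05 with 1 Mbp probe set. Correlations with Snap25 moved for Mog (0.880), Ermn (0.933) and Apod (0.920) as deviations from age means, an alternative chosen after seeing the data, and for Mal (0.826), Aspa (0.652) and Apod (0.825) without the 2 outermost mice. The cause of these shifts was not tested.

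Over all genes tested, the replicate numbers did not show a pairing of the mice. Deviations of same-numbered mice correlated at -0.02, 0.02 and 0.17, and not every mouse correlated best with its own number. Among the 9 myelin genes, replicate 3 was highest within its age for 8 at 18 months and for 9 at 2 months. The replicate block lowered the SE of all 9, such as Mag from 0.52 to 0.33 and Mog from 0.33 to 0.22. A pairing in these genes was not tested. With the replicate block, 3 myelin genes and 5 other oligodendrocyte genes were higher at an unadjusted p under 0.05 and 0 lower, where 3.98% of all genes were higher and 3.09% lower, with Mog at an adjusted p of 0.529 (limma).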

Other observations

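Markers of the other cell types that plexus tissue can hold were measured in the same mice. Over all genes tested, 4.02% were higher and 3.03% lower at an unadjusted p under 0.05. Differences below 0 were found for 6288 of 12681 genes. Of 8 macrophage genes, 6 were tested, with 1 higher and 0 lower at an unadjusted p under 0.05 and a median difference of 0.30; that 1 was Ms4a7, a membrane protein gene of border macrophages, at 2.04. For microglia, 8 of 9 genes were tested, 0 passed in either direction and the median was 0.20. All 11 genes of ependyma, the ciliated lining of the ventricle, had differences below 0, with 2 lower and 0 higher at an unadjusted p under 0.05 and a median of -0.20. Stromal genes gave 2 of 11 lower and 0 higher with a median of -0.30, and endothelial genes 0 of 7 in either direction with a median of 0.01. Of 14 epithelial genes, 11 had differences below 0, with a median of -0.08. At an unadjusted p under 0.05, 0 were lower and 1 was higher (Aqp1, the water channel, 0.64, or 0.43 without both mice numbered 3). The ranges of 5 of the 14 were separate in the lower direction, a larger share than the 6.25% of all genes. Of 12 astrocyte genes, 0 passed, with a median of 0.10. By limma, 0 genes of any of these lists passed the adjusted threshold.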
